A study of Mus musculus with 8 samples.

Results

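The ribosome biogenesis genes described here are 37 named mouse genes whose products transcribe, modify, cut or assemble ribosomal RNA. They were chosen by gene symbol, and a gene was counted as measured when a probe that carries its symbol had a detection p under 0.01 on at least 1 array. Of the 37 genes, 34 had a probe in the probe table used here and 29 were detected, out of 7456 detected genes in all. By step, the detected genes were 5 of 5 for transcription by RNA polymerase I, 6 of 7 for small nucleolar ribonucleoproteins (snoRNPs), 5 of 8 for small subunit processing, 10 of 13 for large subunit processing and 3 of 4 nucleolar proteins that act at several steps. Dkc1, Utp20 and Wdr43 had no probe there, and Bysl, Nop16, Npm1, Rrs1 and Wdr12 had a probe that was not detected on any array. Of the 29 detected genes, 28 were detected on all 8 arrays. Nolc1 was detected on 6 arrays, all except the Δ122p53 control and p53-null control 1.

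RNA came from cultured splenocytes of C57BL/6 mice aged 5 to 6 weeks, with the spleens of 4 mice pooled, and was hybridised to 8 one-colour Illumina arrays. The 3 genotypes were wild type (WT), p53-null (p53-/-) and Δ122p53, in which the p53 gene makes a protein without its N-terminal part. WT and Δ122p53 cells gave 1 control array and 1 array after amsacrine each, and p53-null cells gave 2 control arrays, 1 amsacrine array and 1 array after gamma irradiation. Amsacrine, a poison of the enzyme topoisomerase II, was given at 1 µg/mL for 5 hours, and irradiation was a dose of 4 Gy. Per the labels' protocols, the control for amsacrine was its carrier, 30% ethanol, and the control for irradiation was untreated cells. The labels do not say which of the p53-null controls is which, so that pair may differ in the carrier as well as in sampling. They also leave out how long after irradiation the cells were collected, and whether the pair came from separate cultures. The p-values of the treatment responses, and of contrasts between them, therefore cover only the spread between arrays, and that spread may be technical. The common amsacrine effect and the genotype differences come from another model, which assumes the same amsacrine response in every genotype. Unequal responses between genotypes therefore also enter the spread behind those p-values.

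Ribosomes are assembled mainly in the nucleolus. RNA polymerase I copies the ribosomal DNA into a long precursor, snoRNPs guide the chemical modification of that precursor, and separate sets of proteins cut and fold it into the small and the large subunit. Growing and dividing cells make ribosomes fastest, and the transcription factor Myc is known to activate many of these genes through the E-box sequence. When ribosome assembly is disturbed, free ribosomal proteins can stabilise p53, which is why the pathway is studied beside DNA damage.

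Promoters of 7 detected members are printed because the results turn on them or because they hold the E-box that Myc binds. They come from RefSeq on the build GRCm38.p6 and span 250 bases before to 50 bases after the gene's start, on the gene's own strand. Capitals mark each match to the E-box CACGTG, which reads the same on both strands. The first 4 sequences are those with a match, Mybbp1a (chr11:72441077-72441376, plus strand), Rrn3 (chr16:13780449-13780748, plus strand), Nop2 (chr6:125131633-125131932, plus strand) and Pes1 (chr11:3963725-3964024, plus strand). The other 3 have no match to those letters in the window: Nop56 (chr2:130274162-130274461, plus strand), Heatr1 (chr13:12395125-12395424, plus strand) and Ncl (chr1:86359406-86359705, minus strand).
Mybbp1a: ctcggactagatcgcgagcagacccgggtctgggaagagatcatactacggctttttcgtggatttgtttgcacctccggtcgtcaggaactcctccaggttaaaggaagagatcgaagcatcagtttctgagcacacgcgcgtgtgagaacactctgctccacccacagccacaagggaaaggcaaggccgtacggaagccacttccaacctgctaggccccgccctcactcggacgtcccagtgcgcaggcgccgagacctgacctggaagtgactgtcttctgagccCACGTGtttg
Rrn3: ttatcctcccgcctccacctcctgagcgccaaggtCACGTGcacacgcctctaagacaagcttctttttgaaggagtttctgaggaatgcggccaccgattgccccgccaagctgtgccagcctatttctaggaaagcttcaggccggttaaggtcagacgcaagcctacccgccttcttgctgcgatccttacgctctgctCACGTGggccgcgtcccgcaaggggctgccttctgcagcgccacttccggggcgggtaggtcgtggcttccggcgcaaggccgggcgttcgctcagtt
Nop2: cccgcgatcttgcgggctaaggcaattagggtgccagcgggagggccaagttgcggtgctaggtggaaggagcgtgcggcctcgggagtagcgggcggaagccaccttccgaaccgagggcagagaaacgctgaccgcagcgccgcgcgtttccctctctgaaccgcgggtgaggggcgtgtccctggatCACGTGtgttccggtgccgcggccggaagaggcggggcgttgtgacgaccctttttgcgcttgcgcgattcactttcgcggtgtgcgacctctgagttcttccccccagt
Pes1: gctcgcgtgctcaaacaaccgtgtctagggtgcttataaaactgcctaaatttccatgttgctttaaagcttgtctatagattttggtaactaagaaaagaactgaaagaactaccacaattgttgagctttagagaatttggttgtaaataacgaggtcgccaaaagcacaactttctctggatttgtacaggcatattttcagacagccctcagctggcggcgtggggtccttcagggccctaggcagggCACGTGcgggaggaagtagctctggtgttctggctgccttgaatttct
Nop56: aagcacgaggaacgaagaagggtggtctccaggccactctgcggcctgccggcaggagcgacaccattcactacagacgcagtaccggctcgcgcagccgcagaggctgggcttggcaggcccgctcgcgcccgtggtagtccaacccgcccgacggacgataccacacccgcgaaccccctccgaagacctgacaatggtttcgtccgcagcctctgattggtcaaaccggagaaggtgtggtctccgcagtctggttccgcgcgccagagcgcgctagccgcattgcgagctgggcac
Heatr1: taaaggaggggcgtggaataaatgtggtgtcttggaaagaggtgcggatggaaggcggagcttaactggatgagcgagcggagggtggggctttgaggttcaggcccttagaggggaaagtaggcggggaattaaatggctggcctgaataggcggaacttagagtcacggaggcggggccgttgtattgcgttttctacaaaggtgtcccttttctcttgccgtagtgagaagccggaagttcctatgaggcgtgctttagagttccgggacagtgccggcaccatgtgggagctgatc
Ncl: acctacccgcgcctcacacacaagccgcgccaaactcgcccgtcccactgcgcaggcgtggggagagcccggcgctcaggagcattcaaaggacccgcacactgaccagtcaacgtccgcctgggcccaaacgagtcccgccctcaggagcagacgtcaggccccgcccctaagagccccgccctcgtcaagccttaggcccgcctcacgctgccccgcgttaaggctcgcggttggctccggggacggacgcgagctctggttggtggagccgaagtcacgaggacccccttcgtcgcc

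Of the 37 members, 31 had at least 1 promoter in the RefSeq table, and together they had 35. The E-box lay in 6 of the 35 (17.1%), those of Mybbp1a, Nop2, Pes1, Rrn3, Utp20 and Wdr43, against 7.15% of all 32851 promoters of the same length. The Rrn3 window held 2 matches. The core letters of the ETS family motif, CCGGAAG on either strand, lay in 31.4% of the members' promoters and 8.86% of all promoters. The GC box GGGCGG on either strand lay in 74.3% and 35.7%. The median GC content was 59.3% in the members' promoters and 52.7% in all promoters, and the motifs differ in their share of G and C. These matches describe letters in a window and are not binding sites.

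Levels are log2 intensities after background correction and quantile normalization, and a response is the treated level minus the control level on that scale, given with its standard error (SE) from limma. On every array 31.3% to 35.1% of all probes were detected. Most B cell markers (7 to 9 of 9 measured) and T cell markers (9 to 11 of 11) were detected on every array, as splenocytes should show, but Cd4 was not detected on either Δ122p53 array. Trp53 itself had no probe in the table used here, so the genotype labels could not be checked on the targeted gene. Erythroid markers stood apart by genotype: all 10 measured ones were detected on both Δ122p53 arrays, with summed linear levels of 55160 and 48020, against 3 to 5 detected and sums of 1695 to 5826 on the 6 other arrays. Since 6 of the 7 groups are 1 array, the test of a response assumes that each lone array varies as the p53-null control pair does. The number of arrays limits the precision.

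That pair shows how far the members move with no DNA damage. The pair also differed in neutrophil markers, which summed to 14690 on control 1 and 36540 on control 2. The part of that shift in the members' differences was not tested. Control 2 minus control 1 had a median of 0.18 over the 29 members, from -0.69 for Nip7 to 0.91 for Ddx21. The difference was above 0 for 18 members, against 48.2% of all genes, and below 0 for 11. None differed by 2-fold or more, against 6.64% of all genes. The typical member differed by 0.44 in size, which exceeds the 0.3 of all genes.

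The first step is transcription of ribosomal DNA. Polr1a, the largest subunit of RNA polymerase I, stood at 9.49 on the WT control and 10.25 on the WT amsacrine array, at 8.99 and 9.17 on the p53-null controls, at 10.01 after amsacrine and 10.29 after irradiation in p53-null cells, and at 9.09 and 9.69 on the Δ122p53 control and amsacrine arrays. All 4 treated arrays lay above all 4 control arrays on this probe. On the other detected Polr1a probe the Δ122p53 amsacrine array, at 7.39, lay below p53-null control 2, at 7.68. Polr1b, the other large catalytic subunit, was at 7.73 and 8.68 in WT, 8.19 and 8.51 on the p53-null controls, 9.36 after amsacrine, 9.35 after irradiation, and 8.67 and 8.94 in Δ122p53. Each treated array was above the control of its own genotype, but the Δ122p53 control was nearly as high as the WT amsacrine array. Rrn3, the factor that makes polymerase I competent to start, had a different order, with 7.23 and 7.27 in WT, 6.30 and 6.96 on the p53-null controls, 6.75 after amsacrine, 7.43 after irradiation, and 6.35 and 7.18 in Δ122p53. Its WT arrays were level with each other and its p53-null amsacrine array fell between the controls. Polr1c, a subunit shared with RNA polymerase III, ranged from 7.51 to 8.56, and Tcof1, a nucleolar protein that supports ribosomal DNA transcription, ranged from 10.09 to 11.16.

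Among the snoRNP genes, Nop56 encodes a core protein of the box C/D particles that direct methylation. Its level was 7.84 and 8.70 on the WT control and amsacrine arrays, 9.03 and 8.53 on the p53-null controls, 9.71 after amsacrine and 9.75 after irradiation, and 9.59 and 10.34 in Δ122p53. The arrays were ordered by genotype as well as by treatment, so that the Δ122p53 control lay above the WT amsacrine array. Nolc1, which encodes a chaperone of snoRNPs, was at 5.88 and 6.77 in WT, 5.44 and 5.81 on the p53-null controls, 6.55 after amsacrine, 7.34 after irradiation, and 5.69 and 6.42 in Δ122p53. All 4 treated arrays were above all 4 controls, on 2 of which Nolc1 was not detected. Fbl, the methyltransferase of the box C/D particles, ranged from 11.51 to 12.75, and its partner Nop58 from 9.92 to 11.29. Gar1 and Nhp2, of the box H/ACA particles that direct pseudouridylation, ranged from 10.64 to 12.24 and from 9.86 to 11.06. All 4 of these genes were highest on the irradiated array.

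The small subunit genes included the member whose probe had the widest amsacrine response. Heatr1, whose yeast counterpart Utp10 belongs to the complex that first binds the precursor, was at 9.82 on the WT control and 12.00 on the WT amsacrine array, 10.74 and 10.33 on the p53-null controls, 12.22 after amsacrine, 11.30 after irradiation, and 11.04 and 11.34 in Δ122p53. The WT and p53-null amsacrine arrays stood above the 6 others. Rrp9, a protein of the U3 snoRNP, was at 8.91 and 9.23 in WT, 7.81 and 8.33 on the p53-null controls, 8.81 after amsacrine, 9.58 after irradiation, and 7.96 and 7.99 in Δ122p53. Its Δ122p53 arrays lay below both WT arrays. Nop14, which in yeast is needed for the small subunit, was at 7.89 and 8.66 in WT, 7.25 and 7.65 on the p53-null controls, 8.66 after amsacrine, 8.78 after irradiation, and 7.60 and 8.12 in Δ122p53. Every treated Nop14 array was above every control array. Noc4l, the relative of the yeast partner of Nop14, ranged from 7.90 to 8.83, and Rrp12, which in yeast takes part in subunit export, from 9.27 to 10.99.

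In the large subunit set, Gnl3 encodes nucleostemin, a nucleolar GTPase. Gnl3 was at 10.30 and 11.57 in WT, 10.89 and 10.64 on the p53-null controls, 11.91 after amsacrine, 11.27 after irradiation, and 11.46 and 11.50 in Δ122p53. The Δ122p53 arrays were level with each other and with the WT amsacrine array. Rrp1b, a nucleolar protein related to yeast Rrp1, was at 8.80 and 9.86 in WT, 8.22 and 8.94 on the p53-null controls, 9.75 after amsacrine, 10.14 after irradiation, and 8.71 and 9.65 in Δ122p53. Every treated Rrp1b array was above every control array. The same separation, given above for Polr1a, Nolc1 and Nop14, also held for other members, such as Fbl, Gar1 and Ftsj3. The share of all genes that show it was not counted, so it does not single these genes out. The other 8 detected genes of the step spanned between 1.12 (Ddx18, an RNA helicase) and 1.76 (Pes1) from their lowest to their highest array.

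Of the proteins that act at several steps, Ncl (nucleolin), an abundant nucleolar RNA-binding protein, was at 9.16 and 9.10 in WT, 8.62 and 9.27 on the p53-null controls, 8.47 after amsacrine, 10.08 after irradiation, and 8.29 and 8.07 in Δ122p53. The irradiated array was alone above all others, and no amsacrine array was above its control. Mybbp1a (Myb-binding protein 1a), a nucleolar protein that is also known to bind p53 when the nucleolus is stressed, was at 6.04 and 7.03 in WT, 7.15 and 6.68 on the p53-null controls, 8.23 after amsacrine, 7.84 after irradiation, and 7.39 and 8.41 in Δ122p53. Each treated Mybbp1a array was above the controls of its own genotype. Ddx21, an RNA helicase, ranged from 8.84 to 10.30.

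**Figure D1:**
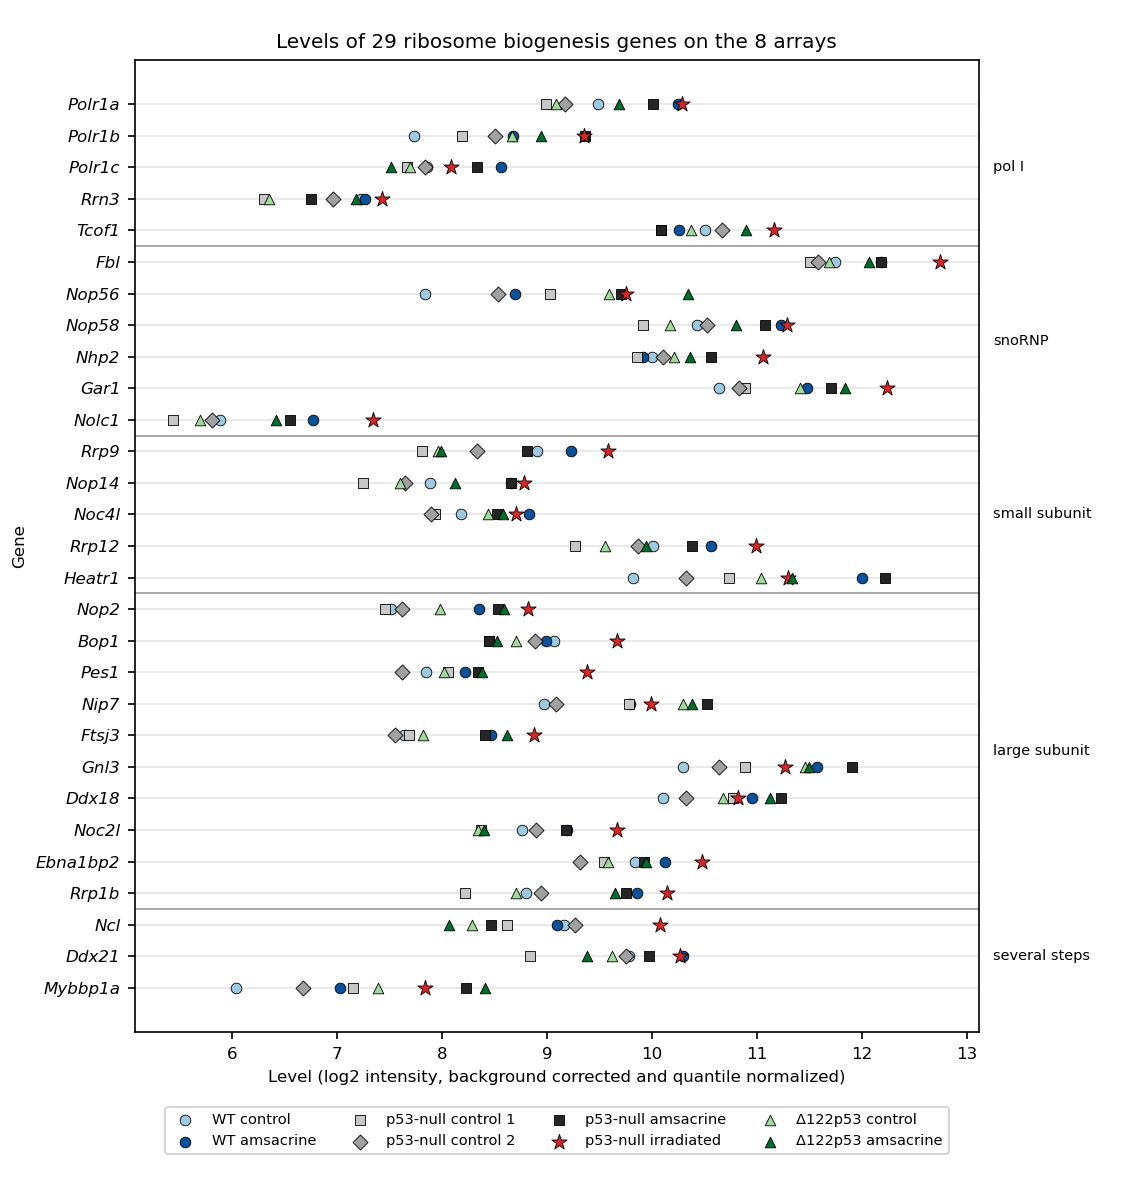
Levels of the 29 detected ribosome biogenesis genes (log2 intensity, x axis) on each of the 8 arrays, 1 symbol per array, grouped by step. The red stars (p53-null irradiated) lie at the right end of the row for 19 of 29 genes, and the light symbols (controls) mostly lie to the left of the dark ones (amsacrine).

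In WT cells, 25 of 29 members were above control after amsacrine, against 52.7% of all genes. The median response was 0.76, against 0.05 over all genes. On the probes used, Heatr1 had the largest, 2.18 ± 0.41 (SE), or 4.53-fold, followed by Gnl3 at 1.27 ± 0.39 and Rrp1b at 1.05 ± 0.48. With the mean of each gene's probes Heatr1 was at 1.39 and Gnl3 at 1.40. These 3 were the only members at least 2-fold higher, against 9.70% of all genes, and 0 were 2-fold lower, against 12.1%. The 4 members below control were Tcof1 (-0.26 ± 0.45), Nhp2 (-0.09 ± 0.39), Bop1 (-0.08 ± 0.42) and Ncl (-0.06 ± 0.46), all by less than their SE. By step the medians were 0.70 for polymerase I, 0.82 for snoRNPs, 0.66 for the small subunit and 0.82 for the large subunit. In limma 0 members passed an adjusted p of 0.05, as did 0% of all genes, and 2 members (Heatr1 and Gnl3) had an unadjusted p under 0.05, against 19.7% of all genes. The smallest adjusted p in limma was 0.1, for Heatr1.

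The WT amsacrine array also differed from its control in cell type markers. The summed linear level of the 9 measured B cell markers was 69740 on the control and 29400 after amsacrine, with Cd22 no longer detected. For the 7 macrophage markers the sums were 9617 and 2507, and for the 11 proliferation markers 3427 and 2055. In bulk RNA, fewer cells of a type and less RNA per cell cannot be told apart, and the part of these shifts in the members' responses was not tested.

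In p53-null cells, 26 of 29 members were above the mean of the controls after amsacrine, against 51.3% of all genes, with a median of 0.79 against 0.02. For 25 members the amsacrine array was above both controls, against 39.7% of all genes. The 4 exceptions were Rrn3, Tcof1, Bop1 and Ncl. Heatr1 was again highest on the probes used, at 1.68 ± 0.36 (3.20-fold), or 1.08 as the mean of its probes. It was followed by Mybbp1a at 1.32 ± 0.37 (2.50-fold, but 0.70 on the log2 scale in the authors' table), Nop14 at 1.21 ± 0.36 and Rrp1b at 1.17 ± 0.41. In all, 7 members were at least 2-fold higher, against 6.08% of all genes, and 0 were 2-fold lower, against 8.41%. The count of 7 was 4 with cyclic loess normalization and 2 in the authors' normalized table, 6 without control 1 and 12 without control 2. All 6 detected snoRNP genes lay between 0.57 and 0.93. In limma 0 members passed the adjusted threshold, against 0.134% of all genes, and 12 had an unadjusted p under 0.05, against 17.2%. B cell markers summed to 69980 and 62260 on the controls and 39740 after amsacrine, T cell markers to 36840 and 34600 against 24010, macrophage markers to 3853 and 4455 against 1915, and neutrophil markers to 14690 and 36540 against 10080. By value 6 of 7 macrophage and 7 of 11 neutrophil markers were at least 2-fold lower. The part of these shifts was not tested.

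In Δ122p53 cells the responses to amsacrine were mostly positive but small. Of 29 members, 25 were above control, against 50.4% of all genes, with a median of 0.38 against 0.00. Mybbp1a was the one member at least 2-fold higher, at 1.02 ± 0.42 (2.02-fold), against 3.38% of all genes, and 0 were 2-fold lower, against 3.93%. Rrp1b was at 0.94 ± 0.48, Rrn3 at 0.84 ± 0.46 (0.33 in the authors' table, where Mybbp1a was at 0.60) and Ftsj3, related to a yeast rRNA methyltransferase, at 0.81 ± 0.38. Nolc1 was not detected on the control and was at least 1.37-fold higher after amsacrine, a bound against the lowest detected signal. Heatr1 was at 0.30 ± 0.41, and Gnl3 at 0.03 ± 0.39. In limma 0 members passed the adjusted threshold (0% of all genes), the smallest adjusted p was 0.736, and 0 had an unadjusted p under 0.05, against 6.89% of all genes. Proliferation markers summed to 5757 on the control and 9157 after amsacrine, where in WT and p53-null cells the sums were lower after amsacrine, and B cell markers summed to 50390 and 23010. The part of these shifts was not tested.

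**Figure D2:**
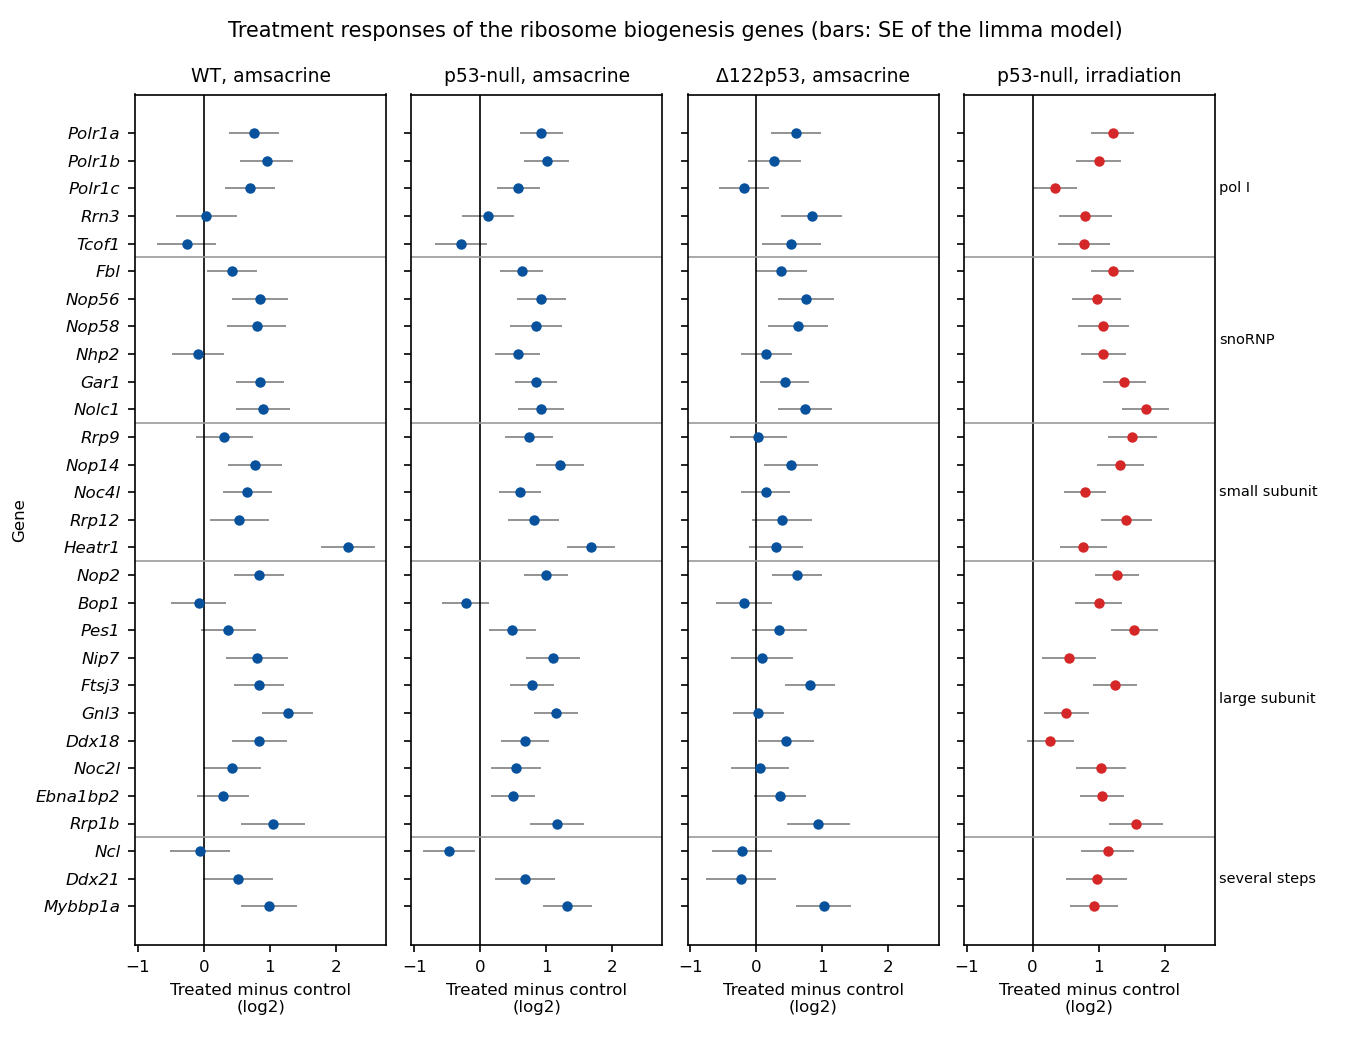
Responses of the 29 members (log2, treated minus control, x axis) to amsacrine in each genotype and to irradiation in p53-null cells, as points with bars of 1 SE from the limma model. All 29 points of the irradiation panel lie above 0, and Heatr1 stands out to the right in WT (2.18) and p53-null (1.68) cells but not in Δ122p53 cells (0.30).

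The difference between genotypes in the amsacrine response was tested directly as an interaction. The p53-null response minus the WT response had a median of 0.08 over the members and was above 0 for 20 of 29 (48.9% of all genes), from -0.50 for Heatr1 to 0.66 for Nhp2. That median was 0.01 without p53-null control 1 and 0.22 without control 2. The Δ122p53 response minus the WT response had a median of -0.16, with 5 of 29 members above 0, against 47.5% of all genes. In it 2 members were at least 2-fold lower, against 12.1% of all genes: Heatr1 at -1.88 ± 0.58 and Gnl3 at -1.23. Against the p53-null response the median was -0.33, with 5 of 29 above 0 (48.2% of all genes), and 3 members were at least 2-fold lower (8.17% of all genes), with Heatr1 at -1.38 ± 0.54 and Gnl3 at -1.11. In limma 0 members passed the adjusted threshold in each of the 3 interactions, as did 0% of all genes. At an unadjusted p under 0.05 there were 0 members for p53-null minus WT (1.52% of all genes) and 1 for each Δ122p53 interaction, Heatr1 (10.8% and 8.34%). The adjusted p of Heatr1 in limma was 0.389 against WT and 0.579 against p53-null.

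Heatr1 and Gnl3 each had further detected probes. The Heatr1 probe detected on all arrays beside the one used gave amsacrine responses of 1.66 in WT, 1.20 in p53-null and 0.27 in Δ122p53, the same order as the main probe. The third Heatr1 probe was detected on 1 array only and gave 0.32, 0.36 and 0.47. The other Gnl3 probe gave 1.52, 1.20 and 0.00. Over the 12 further probes of 9 members, the sign matched the main probe for 11 in WT (not Ebna1bp2), 12 in p53-null and 10 in Δ122p53 (not Ebna1bp2 and Gnl3). For the irradiation response it matched for 11, all but the third Heatr1 probe, which gave -0.08.

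Across the 29 members, the WT and p53-null amsacrine responses, which share no array, were alike in order, with a Pearson r of 0.88 and a Spearman rho of 0.87, where all 7456 genes gave 0.78 and 0.76. WT against Δ122p53 gave 0.26 and 0.38 (0.16 and 0.14 over all genes), and p53-null against Δ122p53 0.37 and 0.36 (0.24 and 0.22). The WT amsacrine and p53-null irradiation responses gave -0.11 and -0.06 (0.28 and 0.20 over all genes), and the Δ122p53 amsacrine and p53-null irradiation responses 0.32 and 0.26 (0.32 and 0.30). These are descriptions across genes measured on the same few arrays, and genes are not independent replicates.

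For 22 of 29 members every amsacrine array was above all controls of its genotype, against 19.7% of all genes. The 7 others were Polr1c, Rrn3, Tcof1, Nhp2, Bop1, Ncl and Ddx21. In the additive model of genotype and amsacrine, the common amsacrine effect had a median of 0.66 over the members, against 0.04 over all genes, and was above 0 for 26 of 29 (53.5% of all genes). Mybbp1a was the 1 member that passed, and rose by 1.13 ± 0.20 (2.19-fold, adjusted p = 0.0491 in limma), against 0.402% of all genes called higher and 2.11% called in either direction. Just outside the threshold were Ftsj3 at 0.81 ± 0.17 (adjusted p = 0.0635 in limma) and Rrp1b at 1.07 ± 0.23 (adjusted p = 0.064). On the probes used, Heatr1 had the largest value, 1.42 ± 0.35, with an adjusted p of 0.0791 in limma. The model assumes equal responses, but those of Heatr1 were 2.18 in WT, 1.68 in p53-null and 0.30 in Δ122p53 cells. At an unadjusted p under 0.05 there were 18 members, all higher, against 11.6% of all genes that were higher and 25% in either direction.

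The Mybbp1a call was lost under several other choices. Without p53-null control 1 its adjusted p in limma was 0.114, without control 2 it was 0.118, and 0 members passed in either case. Without the Δ122p53 arrays 12 of 29 members passed, all higher: Ftsj3, Gar1, Gnl3, Heatr1, Mybbp1a, Nolc1, Nop14, Nop2, Nop56, Polr1a, Polr1b and Rrp1b. In that fit 1265 of all 7456 genes passed in either direction, where the main fit had 157. The number of all genes called higher there was not counted. The 2 other detected Mybbp1a probes gave common effects of 0.64 and 0.46, and the mean of its probes gave 0.74 with an adjusted p of 0.0808. Over all the alternatives run its adjusted p ranged from 0.0252 to 0.118 and its value from 0.57 to 1.19. In the same model all 9 measured B cell markers and 10 of 11 T cell markers had a common amsacrine effect below 0. Called lower were 4 B cell and 2 T cell markers, as were 127 of all 7456 genes. The part of these markers in the members' values was not tested.

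Irradiation of p53-null cells gave the most uniform picture. All 29 detected members were above the mean of the controls, against 53.6% of all genes, and all 29 were above both controls, against 40.2%. With every detected probe of the members taken, 40 of 41 were above the mean of the controls. The median response was 1.05, against 0.04 over all genes, and 16 members were at least 2-fold higher, against 5.49%, and 0 were 2-fold lower, against 5.46%. The irradiated array was the highest of the 8 for 19 members, against 13.8% of all genes. Without control 1 the median was 0.97 and 14 members were at least 2-fold higher, and without control 2 the values were 1.22 and 20. In limma 0 members passed the adjusted threshold, as did 0% of all genes, with a smallest adjusted p of 0.219, and 20 had an unadjusted p under 0.05, against 13.9%.

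By step, the polymerase I genes had a median irradiation response of 0.80, led by Polr1a at 1.21 ± 0.33 (2.31-fold) and lowest for Polr1c at 0.34 ± 0.33. The snoRNP genes had a median of 1.14 and all lay between 0.97 and 1.71. Nolc1 was at 1.71 ± 0.35 (3.28-fold), but it was not detected on control 1 and was close to the lowest detected signal on control 2 (5.81 against 5.72). Its value was 1.09 with no background correction and 0.60 in the authors' table, below the 1.44 and 1.27 of Rrp1b. Gar1 was at 1.39 ± 0.32. The small subunit genes had the highest median, 1.33, with Rrp9 at 1.51 ± 0.37 (2.84-fold), Rrp12 at 1.42 ± 0.39 and Nop14 at 1.33 ± 0.36, while Heatr1 was at 0.77 ± 0.36. In the large subunit set the median was 1.04, with Rrp1b at 1.56 ± 0.41 (2.96-fold) and Pes1 at 1.54 ± 0.36 (2.90-fold). Pes1 and Bop1 form a complex with Wdr12 that the large subunit needs, and Bop1 was at 1.00 ± 0.36. The lowest of the step were Gnl3 at 0.51 ± 0.34 and Ddx18 at 0.27 ± 0.36. Ncl was at 1.14 ± 0.40, Ddx21 at 0.97 ± 0.46 and Mybbp1a at 0.93 ± 0.37. On the irradiated array B cell markers summed to 53110, T cell markers to 22160 against 36840 and 34600 on the controls, and macrophage markers to 2130 against 3853 and 4455, and their part was not tested. Proliferation markers summed to 3543, against 2716 and 3187 on the controls.

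**Figure D3:**
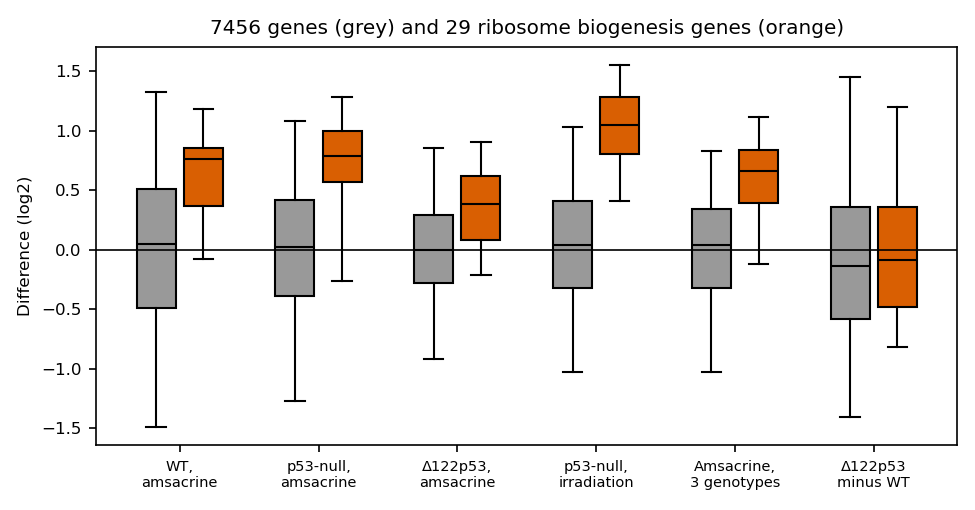
Differences (log2, y axis) of all 7456 detected genes (grey) and the 29 members (orange) in 6 comparisons, with boxes from the 25th to the 75th percentile, a line at the median and whiskers from the 5th to the 95th percentile. The members' box lies above 0 in the 4 treatment responses and the common amsacrine effect, highest for irradiation (median 1.05), and it straddles 0 for Δ122p53 minus WT (median -0.09).

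The p53-null amsacrine and irradiation responses share their controls, so the treated arrays were also set directly against each other. The irradiated array was higher for 22 of 29 members, against 53.7% of all genes, with a median of 0.39 against 0.05. The widest difference was that of Ncl, 1.61 ± 0.46 (3.05-fold), which was below the controls' mean after amsacrine (-0.47 ± 0.40). Bop1 (1.22 ± 0.42), Tcof1 (1.07 ± 0.45) and Pes1 (1.04 ± 0.42) were also at least 2-fold higher on the irradiated array, which makes 4 members against 6.83% of all genes. None was 2-fold lower, against 6.28%. At the other end Heatr1 was at -0.91 ± 0.41, Gnl3 at -0.64 ± 0.39, Nip7, a large subunit factor, at -0.54 ± 0.47 and Ddx18 at -0.41 ± 0.42. These are values of the probes used. The other Heatr1 probe detected on all arrays gave -0.27, and the third gave -0.44. The other detected probes of Gnl3, Nip7 and Ncl gave -0.31, -0.60 and 1.18. Nop56 and Polr1b were level between the treatments, at 0.04 ± 0.43 and -0.01 ± 0.40. None passed the adjusted threshold in limma (0% of all genes), with a smallest adjusted p of 0.44, and 3 members had an unadjusted p under 0.05, against 10.6%. The time from treatment to harvest is known for amsacrine only, so that the treatments' times may differ. Neutrophil markers (11 measured) summed to 29900 on the irradiated and 10080 on the amsacrine array, against 14690 and 36540 on the controls, and the part of that shift was not tested.

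**Figure D4:**
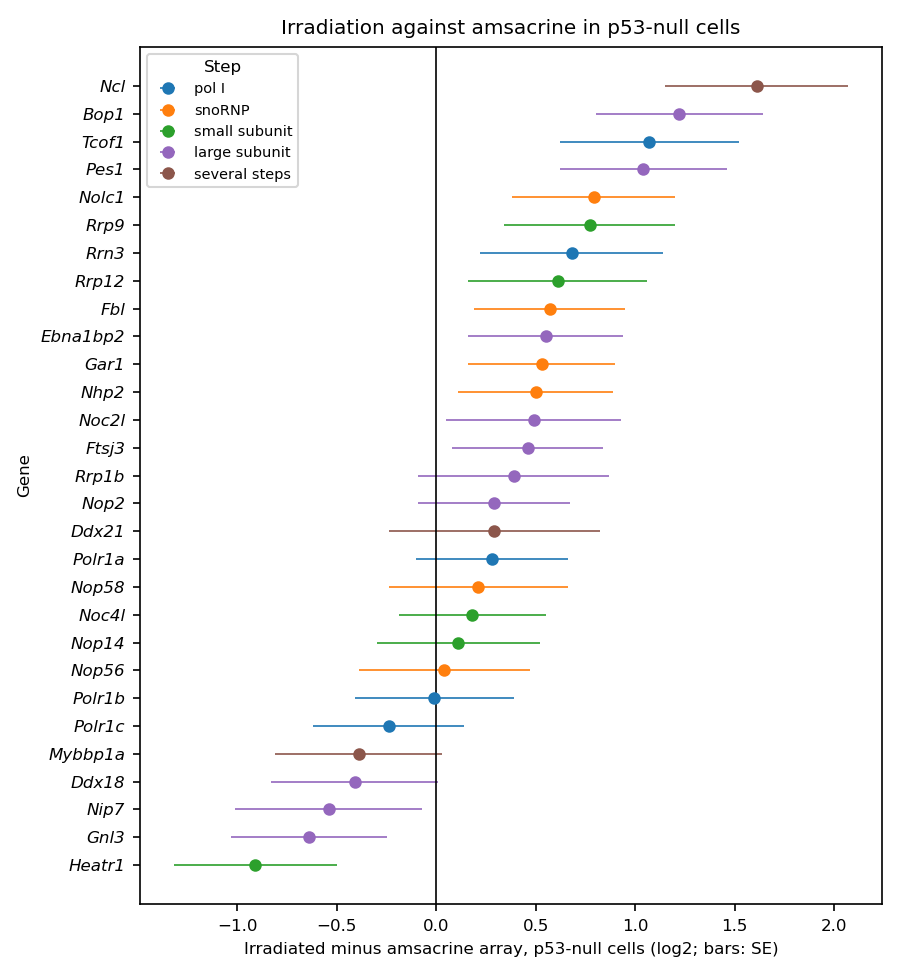
Irradiated minus amsacrine array in p53-null cells (log2, x axis) for each of the 29 members, ordered by size and coloured by step, with bars of 1 SE from the limma model. On the probes used, values run from 1.61 for Ncl at the top to -0.91 for Heatr1 at the bottom, with 22 of 29 above 0.

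Genotype differences came from the additive model, which averages over control and amsacrine arrays. Between Δ122p53 and WT the members were split: 14 of 29 were above 0, against 41.6% of all genes, with a median of -0.09 against -0.14. Nop56 was higher in Δ122p53 than in WT by 1.69 ± 0.26 (3.23-fold, adjusted p = 0.0125 in limma) and Mybbp1a by 1.37 ± 0.26 (2.58-fold, adjusted p = 0.0232 in limma). These 2 calls compare with 6.65% of all genes called higher, and 0 members were called lower, against 7.66%. Without direction the share called was 14.3%, and 5 members had an unadjusted p under 0.05, against 31.7%. Rrp9 was at -1.10 ± 0.30, with an adjusted p of 0.0548 in limma, and Ncl was at -0.95 ± 0.29 with 0.0761. On the probes used, the WT and Δ122p53 arrays of Nop56, Mybbp1a, Rrp9 and Ncl did not overlap. That was also so for other members, such as Nip7, Rrp12 and Noc2l. The share of all genes with no overlap was not counted, so the separation does not single these genes out.

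Nop56 has 1 probe. Mybbp1a has 3 detected probes that disagree here: the one used gave 1.37, the others 0.56 and -0.06. The probe at -0.06 was detected on all 8 arrays, as was the one used. Its levels were 7.21 and 7.45 in WT and 6.96 and 7.59 in Δ122p53, so these genotypes overlapped on it. The mean of the probes gave 0.62 with an adjusted p of 0.13 in limma. In the authors' table the Mybbp1a difference was 0.65. Under the other alternatives that p was 0.0171 to 0.0498, and for Nop56 it was 0.00946 to 0.0264. Beside these calls stand the cell type markers, of which 9 of 10 erythroid and 7 of 11 proliferation markers were called higher in Δ122p53 than in WT, and 8 of 11 T cell and 5 of 7 macrophage markers were called lower. Proliferation markers summed to 5757 and 9157 on the Δ122p53 arrays and to 3427 and 2055 on the WT arrays. The part of these shifts in the Nop56 and Mybbp1a differences was not tested.

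On the probes used, the average p53-null levels of Nop56 and Mybbp1a lay between those of the other genotypes. The other Mybbp1a probes did not show that order. They gave 0.56 and -0.15 for p53-null minus WT, and -0.01 and 0.09 for Δ122p53 minus p53-null. For p53-null minus WT, Mybbp1a was at 1.01 ± 0.24 and Nop56 at 0.96 ± 0.24, and Rrp9 at -0.68 ± 0.28, and 11 of 29 members were above 0 (43.8% of all genes). No member (0% of all genes) passed the adjusted threshold in limma, each of these 3 had an adjusted p of 0.472, and they were the 3 members with an unadjusted p under 0.05, against 10.4% of all genes. For Δ122p53 minus p53-null, the median was 0.04, 17 of 29 were above 0 (44.8% of all genes) and 0 members passed in limma, against 8.45% of all genes. The 1 member with an unadjusted p under 0.05, against 22.7% of all genes, was Nop56, at 0.73 ± 0.24.

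**Figure D5:**
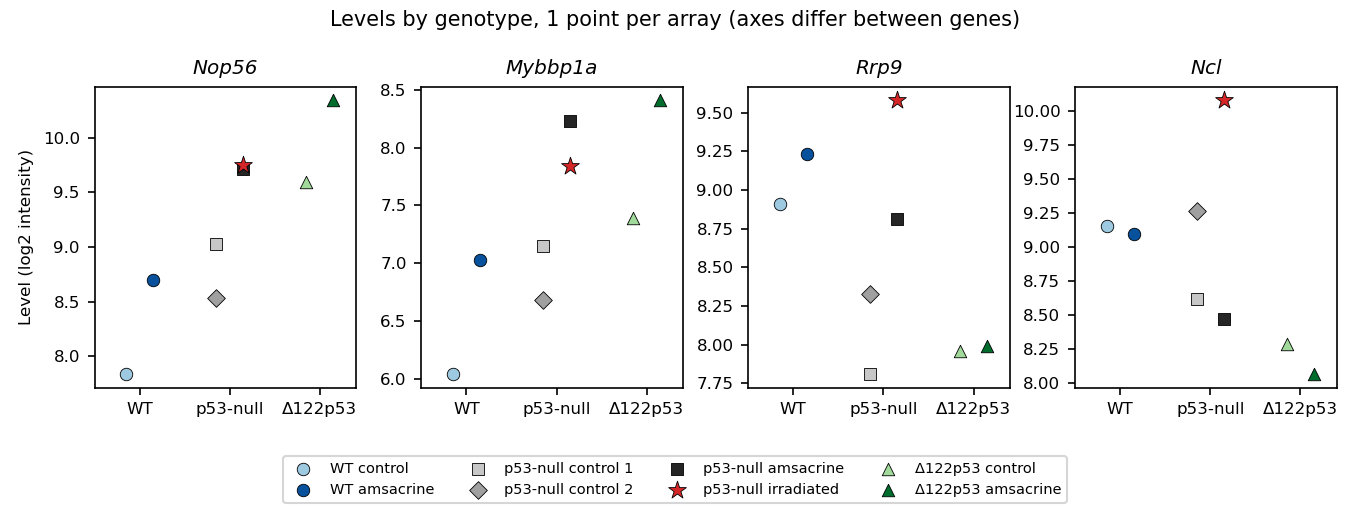
Levels of Nop56, Mybbp1a, Rrp9 and Ncl (log2 intensity, y axis, which differs between panels and does not start at 0) by genotype, 1 point per array. On the probes used, both Δ122p53 arrays lie above both WT arrays for Nop56 and Mybbp1a, and below them for Rrp9 and Ncl. Another Mybbp1a probe detected on all 8 arrays, not shown here, does not separate these genotypes. Other members, not shown here, also separate these genotypes, such as Nip7.

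The rest of the pathway was followed through 138 further ribosome biogenesis genes, of which 87 were detected. After irradiation of p53-null cells 77 of the 87 were above the controls' mean, against 53.6% of all genes, with a median of 0.61. At least 2-fold higher were 20, against 5.49% of all genes, and 0 were 2-fold lower, against 5.46%. After amsacrine 60 of 87 were above control in WT (median 0.24), 73 in p53-null (median 0.48) and 61 in Δ122p53 cells (median 0.18). The shares of all genes above control were 52.7%, 51.3% and 50.4% in that order. In limma 0 of the 87 passed the adjusted threshold in any of the 4 treatment responses, and the numbers at an unadjusted p under 0.05 were 11, 12 and 1 after amsacrine in that order and 21 after irradiation. Over all genes the shares at that p were 19.7%, 17.2%, 6.89% and 13.9%. In either direction, the amsacrine counts thus lay below the share of all genes and the irradiation count above it. Of the 87, 9, 12, 1 and 21 were higher at that p, against 663, 545, 235 and 544 of all 7456 genes. Counted in that direction only, the Δ122p53 share alone lay below that of all genes. The widest values were those of Utp4, a partner of Heatr1 in the small subunit complex, in WT cells (2.13 ± 0.43), and of Ppan, a large subunit factor, in p53-null cells after amsacrine (1.61 ± 0.32) and irradiation (1.54 ± 0.32). At the low end in WT stood Nop10, of the box H/ACA particles, at -1.01 ± 0.39, and in p53-null cells Nol7 after amsacrine and Urb1, a large subunit factor, after irradiation, neither of which was detected on that treated array. In Δ122p53 cells Xrn2, an exonuclease that trims rRNA, was not detected on the control and was at least 2.15-fold higher after amsacrine, and Imp3, of the U3 particle, was at -0.54 ± 0.38.

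By genotype, 2 of the 87 passed between Δ122p53 and WT, against 14.3% of all genes, and 1 between Δ122p53 and p53-null, against 8.45%. Both shares of the 87 lie below those of all genes. Cell type markers also differed between these genotypes, and their part in the differences that follow was not tested. Riok1, a kinase of late small subunit maturation, was lower in Δ122p53 than in WT, with a difference of -1.47 ± 0.30 (adjusted p = 0.0267 in limma), and lower than in p53-null, with -1.49 ± 0.28 (adjusted p = 0.0238 in limma). Its levels were 7.52 and 7.72 on the Δ122p53 arrays and 8.59 to 9.59 on the 6 others. Ubtf, which binds ribosomal DNA and recruits polymerase I, was also lower in Δ122p53 than in WT, by a difference of -1.38 ± 0.30 (adjusted p = 0.0305 in limma), with 9.33 and 9.66 on the Δ122p53 arrays and 10.57 and 11.18 on the WT arrays.

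Of the Myc network, 7 of 11 genes were detected. Myc was at 6.23 on the WT control and not detected on the WT amsacrine array, at 6.11 and 7.31 on the p53-null controls, 7.25 after amsacrine, 6.03 after irradiation, and 7.11 and 7.25 in Δ122p53. Its p53-null controls lay far apart, and Myc passed the adjusted threshold in limma in no comparison. The irradiation response of Myc was -0.68 ± 0.54 and its p53-null amsacrine response 0.53 ± 0.54. Mxd1 and Mxd3, which compete with Myc for its partner Max, were not detected on any WT array. Mxd1 was called higher in Δ122p53 than in WT, by at least 1.64-fold (adjusted p = 0.00858 in limma). Mxd3 was called higher there by at least 1.81-fold (adjusted p = 0.00846 in limma). Of all genes, 6.65% were called higher in that comparison. Against p53-null, 2 of the 7 detected Myc network genes were called higher in Δ122p53, as were 358 of all 7456 genes. The part of the cell type marker shifts in these differences was not tested.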

How the data were processed

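RNA of 8 splenocyte samples in 7 groups was measured on Illumina arrays. The authors deposited non-normalized probe intensities with a detection p-value per probe, for 24613 probes; per the file headers the values are not normalized. The authors also deposited a normalized table, made with lumi per the submitters' processing notes. The exact transform of that deposited table, normalized by the authors and read here as log2, is not stated, and it served as an alternative only. Here the intensities were background corrected with neqc (detection p-values in place of control probes, offset 16) and quantile normalized as log2 values, in R 4.3.3 with limma 3.58.1. Median signal was 69.75 to 81.5 per array. Of all probes, 20984 had 1 gene symbol, 1 had several and 3628 had none. Among a gene's detected probes, the brightest on average stood for the gene.

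Treatment responses and interactions came from a limma model with 1 mean per group (1 residual degree of freedom, from the p53-null control pair; prior 4.779). The common amsacrine effect and genotype differences came from an additive model on 7 arrays (3 residual degrees of freedom, prior 3.85). That model assumes the same amsacrine response in each genotype, so its residual spread holds unequal responses as well as the difference within the control pair. All tests were two-sided, and p-values were adjusted by Benjamini-Hochberg over the 7456 genes, with a threshold of 0.05. Where a gene was not detected on 1 side, the fold is a bound, against the higher of its own value and the lowest detected signal on each array. The scripts were tested on simulated data. The members and gene lists were chosen with earlier results of these data known. Values on every array are given for members past the threshold and for the largest response in each step and treatment. Other choices of background, normalization, filter and probe, and leaving out arrays, were tried.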

Additional observations from a re-analysis of the deposited data

How the results depend on the processing

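Over the alternatives run, the members' median kept its sign in all 4 treatment responses and in the common amsacrine effect. The WT amsacrine median of 0.76 was 0.63 with a normexp background of offset 50, 0.60 with no background correction and 0.47 in the authors' table. The p53-null amsacrine median of 0.79 was 0.66 with no background correction and 0.61 in the authors' table, and the irradiation median of 1.05 was 0.82 there and 0.97 to 1.22 without 1 control. The p53-null minus WT response median of 0.08 was 0.01 to 0.22 without 1 control. The common amsacrine median of 0.66 was 0.50 in the authors' table. Its 1 called member became 0 with normexp offset 50, no background correction, the authors' table and the mean of probes, 0 to 0 without 1 control, 4 among genes detected on all 8 arrays and 12 without the Δ122p53 arrays; with no detection filter it was 1, Ftsj3 instead of Mybbp1a. Between Δ122p53 and WT the 2 calls became 1 (Nop56) with the mean of probes and 4 with every probe tested, where the median over 41 probes was 0.06, and 3 with normexp offset 50, no background correction or genes detected on all arrays, Rrp9 being added. The cause of these shifts was not tested, except that fewer arrays or genes enter some of them by construction.

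Members at least 2-fold higher numbered 7 for p53-null amsacrine but 4 with cyclic loess, 2 in the authors' table and 12 without control 2. For Δ122p53 1 became 0 with normexp offset 50, no background correction, cyclic loess, the authors' table and the mean of probes. For irradiation 16 became 9 in the authors' table, and for irradiated minus amsacrine 4 became 2 there. All genes called numbered 157 for the common effect, 42 in the authors' table, 228 among genes detected on all arrays, 94 with no filter, 1 without either control and 1265 without the Δ122p53 arrays. In p53-null cells after amsacrine the 10 called genes became 0 to 63. For Δ122p53 minus WT the 1067 became 642 to 1005, and for Δ122p53 minus p53-null the 630 became 233 to 640, leaving aside the test of every probe. No paired analysis was possible because replicate 2 exists for the p53-null control alone, so that no groups share 2 replicate numbers. Slide as a block was not run, since the headers used here name no slides. Leaving out 1 control leaves the 7-group model no residual degree of freedom, so those responses are values with no test.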
